A study of Mus musculus with 6 samples.

Results

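Of the 7773 H3K36me3 peaks listed for C3H10T1/2 cells, 6359 were from 5 kb to below 50 kb long, and 609 of these (9.58%) lay more than 500 kb from any H3K27me3 peak on their chromosome. These 609 are called the far peaks here, and the other 5750 of the same length range are called the nearer peaks. Length and distance to H3K27me3, measured from edge to edge, chose the far peaks, so neither their range of lengths nor their distance is a finding. C3H10T1/2 is a line of multipotent mesenchymal cells from C3H mouse embryos. The cells stably expressed histone H3.3 with a FLAG-HA tag, either wild type or carrying the K36M mutation, and all were at passage 10 to 15. For each genotype there was 1 input library, 1 H3K36me3 library and 1 H3K27me3 library, 6 in all. The peaks came as 1 list per mark on the mouse build mm9, and the lists name neither a genotype nor a library. Wild-type and K36M cells therefore could not be compared.

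H3K36me3 is laid down over the bodies of transcribed genes by SETD2, a methyltransferase that travels with elongating RNA polymerase II. H3K27me3 is the mark of Polycomb repressive complex 2 (PRC2), which keeps developmental genes silent in mesenchymal and other cells. Methylation at lysine 36 hinders PRC2 on the same histone tail, and H3.3 K36M is known to inhibit several of the enzymes that methylate lysine 36. The far peaks are places where the gene body mark was listed with no Polycomb mark in a wide surrounding. Genes under the peaks are not named, because gene positions on mm9 were not used here.

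The far peaks lay within the territory more than 500 kb from H3K27me3, which was large and held little H3K36me3. This territory came to 916 Mb, or 35.9% of the 2550 Mb between the outermost listed peaks of the chromosomes. H3K36me3 peaks of any length covered 1.84% of it and 8.54% of the remaining bases, a ratio of 0.215. There were 0.665 far peaks per Mb of territory, against 3.52 nearer peaks per Mb elsewhere. Coverage was lower in the territory on 20 of 20 chromosomes, and so was the number of peaks per Mb. The territory was set by H3K27me3, except that 28 of the 40 ends of the spans were set by an H3K36me3 peak. With spans between the outermost H3K27me3 peaks instead, a choice made after the data were seen, coverage was 1.78% and 8.51%, a ratio of 0.209, and lower in the territory on 20 of 20 chromosomes. A list does not tell bases without the mark from bases on which no read can be placed, and these cannot be told apart here. No p-value is given for this or any comparison below, since each mark has 1 list, no replicate, and peaks that share neighbours and are not independent.

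The far peaks were spread unevenly over the chromosomes. The X chromosome had the highest share, with 52 of its 201 peaks of this length range far from H3K27me3. This was 25.9%, with an exact 95% binomial interval of 19.97 to 32.5. Such intervals, here and below, cover counting error only and treat peaks as independent. They are too narrow where far peaks lie together. Chromosomes 18 (42 of 196, 21.4%), 6 (61 of 285, 21.4%), 13 (55 of 279, 19.7%) and 3 (53 of 306, 17.3%) came next, and their intervals overlapped each other and that of the X. At the other end, chromosome 17 had 11 of 326 (3.37%, interval 1.70 to 5.96) and chromosome 15 had 10 of 252 (3.97%). Chromosome 19 had none among 214 (interval 0 to 1.71).

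The share of far peaks was below the share of territory on each chromosome, but by different amounts. On the X, territory made up 65.9% of the span and held 0.493 far peaks per Mb. Chromosome 13 had 32.8% territory and the most far peaks per Mb of it, 1.43. Chromosome 18 held 1.19 per Mb, and there H3K36me3 covered 4.45% of the territory, the highest value of the 20 chromosomes. Chromosome 14 had 36.3% territory and 0.311 far peaks per Mb, the lowest density of the chromosomes with any far peak. On chromosome 19, territory was 12.7% of the span (7.39 Mb) and H3K36me3 covered 0.0731% of it.

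**Figure D1:**
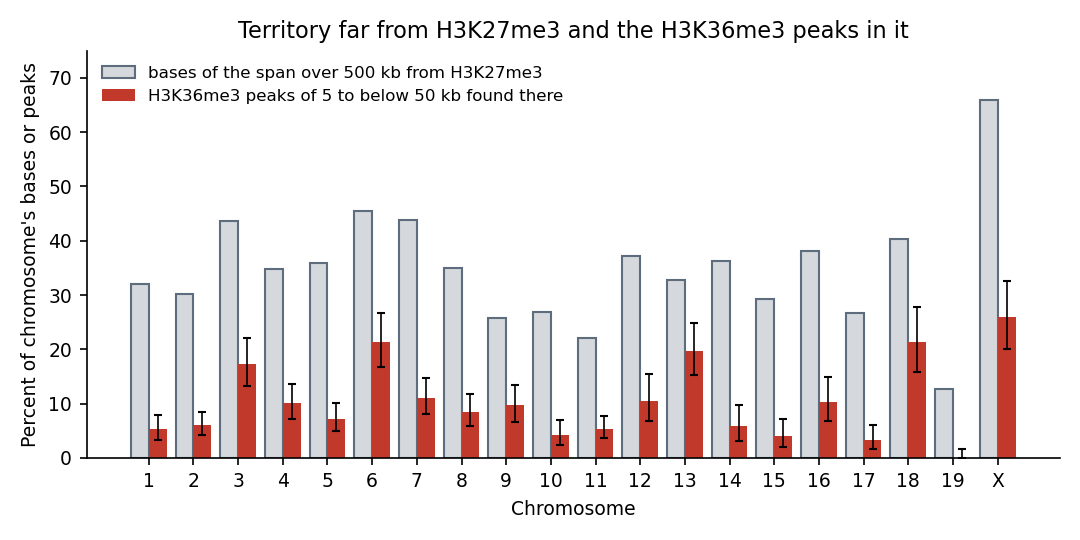
For each chromosome, the grey bar is the percent of the span more than 500 kb from any H3K27me3 peak, and the red bar is the percent of H3K36me3 peaks of 5 to below 50 kb found there, with exact 95% binomial intervals. The red bar is the lower on all 20 chromosomes, and both are highest on the X (65.9% and 25.9%).

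The territory consisted of the inner parts of 581 intervals between neighbouring H3K27me3 peaks, or between the last such peak and the end of the span. Far peaks were found in 231 of these intervals (39.8%). In 86 intervals there was a single far peak, in 60 there were 2, and in 85 there were 3 or more. Those 85 held 403 of the 609 far peaks (66.2%), so most far peaks shared their interval with at least 2 others. A further 316 intervals held no H3K36me3 peak of any length in their inner part, and these added up to 309 Mb, or 33.8% of the territory. The longest of them was 11.5 Mb, on chromosome 15 from 13105401 to 24607000.

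Wider intervals more often held a far peak, which their greater room alone favours, but had fewer per Mb. The shortest inner parts were too short to hold a peak of 5 kb. Of the 199 intervals with an inner part of up to 0.5 Mb, 54 (27.1%) held a far peak, and H3K36me3 covered 6.26% of the inner bases at 2.23 far peaks per Mb. Of the 28 intervals with an inner part above 5 Mb, 25 (89.3%) held one, with coverage of 1.20% and 0.461 far peaks per Mb. The classes of 0.5 to 2 Mb (coverage 2.27%) and 2 to 5 Mb (1.37%) lay in between. H3K36me3 coverage was thus lower in each wider class.

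The most far peaks in a single interval were 20, on chromosome 6, where no H3K27me3 was listed from 127400601 to 137267800. They were spread over 7.16 Mb from 128173001 to 135335600, ranged from 5.2 to 30 kb with a median of 11.4 kb, and 7 of them had another H3K36me3 peak under 10 kb away. An interval of 10.1 Mb on the X chromosome, from 138744601 to 148804800, held 12 far peaks of 5.6 to 37.4 kb with a median of 19 kb. On chromosome 4, an interval of 4.45 Mb from 143024001 to 147472800 held 10 far peaks, packed into 2.10 Mb, and H3K36me3 covered 8.36% of its inner part. Chromosome 7 had an interval of 12.8 Mb (38634401 to 51418600) with 9 far peaks of 7.2 to 18 kb and a coverage of 1.21%. It also had the interval at the end of its span (141034401 to 144661600), again with 9, of 5.4 to 49.4 kb with a median of 28.6 kb. Chromosome 18 had a shorter interval, of 2.96 Mb from 58962601 to 61920600, that also held 9, of 5.2 to 46.6 kb with a median of 26 kb. They lay within 0.677 Mb, and H3K36me3 covered 12.2% of the inner part. H3K36me3 filled these 6 intervals unevenly, from 1.21% to 12.2% of the inner bases.

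**Figure D2:**
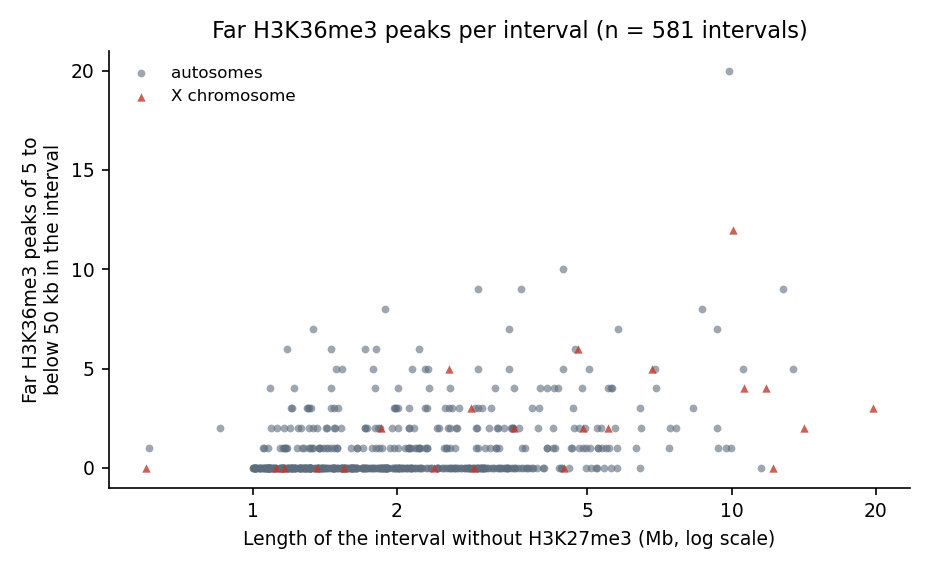
Each point is 1 of the 581 intervals without H3K27me3, placed by its length in Mb (log scale) and by the number of far H3K36me3 peaks in it, with the X chromosome as triangles. In 350 intervals there is no far peak, and the highest point is the chromosome 6 interval with 20.

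In length, the far peaks were close to the nearer peaks. Their median was 16.4 kb (quartiles 10.4 and 26.2 kb), against 15.8 kb (9.8 and 25 kb) for the nearer peaks, a difference of 600 bp. Peaks of 5 to 10 kb made up 23.3% of the far and 25.8% of the nearer peaks. For 10 to 20 kb the shares were 36.8% and 36.8%, and for 20 to 30 kb 20.5% and 20.5%. The class of 30 to 40 kb was 13.6% of the far and 10.7% of the nearer peaks, and that of 40 to 50 kb 5.75% and 6.10%. Among the 19 chromosomes with at least 10 far peaks, the far median was the longer on 9 and the shorter on 10. The differences by chromosome ran from 4.10 kb shorter to 10.2 kb longer, with an SD of 4.21 kb, which is larger than the pooled difference. This SD weighs chromosomes with few far peaks like those with many, so it is not the error of the pooled difference. Without the X chromosome the direction of the pooled difference turned, to 15.6 kb for the far and 15.8 kb for the nearer peaks. Without the 31 far peaks that had no H3K27me3 peak on one side up to the end of the span, both medians were 15.8 kb.

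**Figure D3:**
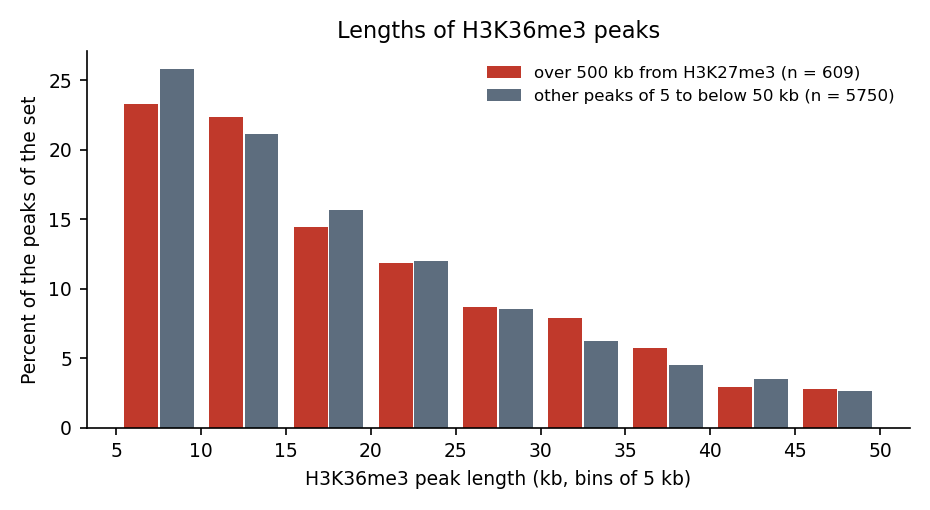
Bars show the percent of far (red) and nearer (grey) H3K36me3 peaks in length bins of 5 kb. Both sets fall off alike from the shortest bin, and the medians are 16.4 and 15.8 kb.

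On the X chromosome the far peaks were longer than the nearer peaks. Its 52 far peaks had a median length of 20.7 kb (quartiles 14.9 and 29.8 kb), against 13.8 kb (8.8 and 23.2 kb) for its 149 nearer peaks. Peaks of 20 kb or longer were 28 of 52 (53.8%, exact 95% interval 39.5 to 67.8) among the far and 45 of 149 (30.2%, interval 23.0 to 38.3) among the nearer peaks. On the autosomes these shares were 38.6% and 37.5%. The far peaks of the X came from 13 of its 22 intervals without H3K27me3. Chromosomes 17 (24.4 against 14.2 kb, 11 far peaks) and 1 (26.2 against 17.2 kb, 21 far peaks) showed larger differences in fewer peaks. The difference on the X was chosen after its values were seen and was not tested.

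With all bases counted, the median density of H3K36me3 around the far peaks was 0.535 times that around the nearer peaks. Within 500 kb either side of the centre, other H3K36me3 peaks covered a median of 6.51% of the bases (quartiles 2.88 and 12.7%) around a far peak, and 12.2% (6.71 and 18.1%) around a nearer one. This is a difference of 5.66 percentage points. The median number of other peaks in that window was 3 against 6. The sets overlapped, and the upper quartile of the far peaks was above the median of the nearer ones. The far median was the lower on 18 of the 19 chromosomes with at least 10 far peaks, with an SD of 3.02 points between chromosomes. The exception was chromosome 12, where it was 11.5% for both sets. In addition, 55 far peaks (9.03%) had no other H3K36me3 peak in the window, against 110 nearer peaks (1.91%). These coverages include bases under H3K27me3, which only the windows of nearer peaks can hold. With those bases left out, a choice made after the data were seen, the medians were 6.51% and 14.9%. The upper quartile of the far peaks was then below the nearer median.

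With all bases counted, the lower density began some distance away from the far peaks and was not seen within 20 kb of them. From 2 to 5 kb outside the peak edge, other H3K36me3 peaks covered 13.9% of the bases around far peaks and 13.4% around nearer peaks. From 5 to 10 kb the values were 20.05% and 19.9%, and from 10 to 20 kb 22.6% and 22.3%. They parted from 20 to 50 kb, at 17.7% and 20.03%, and further at 50 to 100 kb, at 12.2% and 16.2%. From 200 to 500 kb they were 6.82% and 11.1%, and from 500 to 1000 kb 4.95% and 9.43%, a ratio of 0.525. The far value was the lower on 12 of 19 chromosomes from 5 to 10 kb, on 16 from 50 to 100 kb and on 18 from 100 to 200 kb and in each wider bin. The chromosome that differed was 12 at 100 to 200 kb, 11 at 200 to 500 kb and 5 at 500 to 1000 kb. Around nearer peaks, part of the bases were under H3K27me3, and over the whole list H3K36me3 covered 0.160% of the H3K27me3 bases. With those bases left out, a choice made after the data were seen, the nearer peaks had 21.2% from 5 to 10 kb, 24.7% from 10 to 20 kb and 13.4% from 200 to 500 kb. The ratio of far to nearer was then 0.945, 0.915 and 0.507, so the far value was the lower from 5 to 10 kb outward. It was the lower on 12 of 19 chromosomes from 10 to 20 kb, on 17 from 20 to 50 kb and on 19 in each wider bin.

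**Figure D4:**
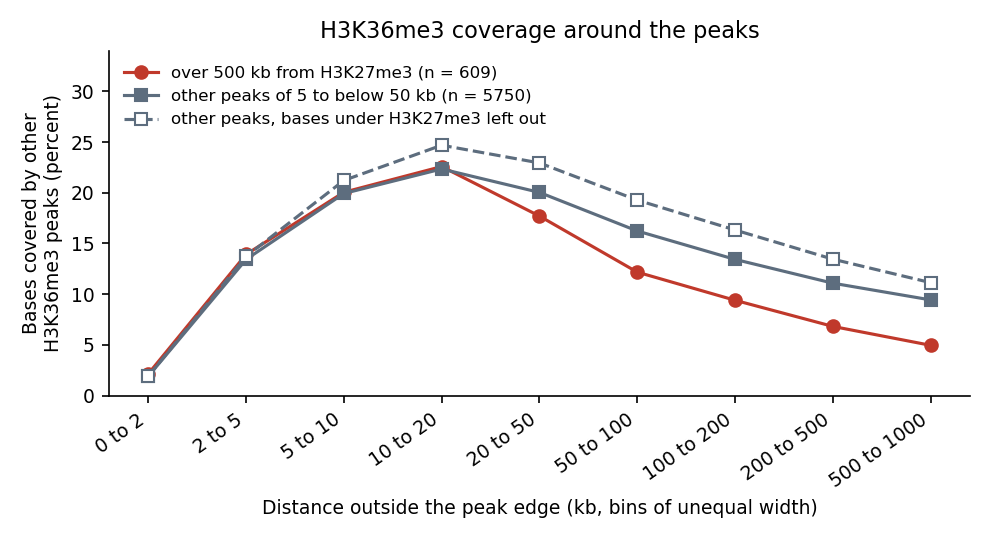
The percent of bases covered by other H3K36me3 peaks is shown in bins of distance (kb) outside the edge of far (red) and nearer (grey) peaks, pooled over all peaks of each set, and for nearer peaks also without the bases under H3K27me3 (dashed). The solid lines run together up to 20 kb (22.6 and 22.3% at 10 to 20 kb) and part beyond, to 4.95 and 9.43% at 500 to 1000 kb.

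Close neighbours were about as common for far peaks as for all nearer peaks together, with a difference of -0.469 percentage points. The next H3K36me3 peak was less than 10 kb away for 265 far peaks (43.5%, exact 95% interval 39.5 to 47.6) and for 2529 nearer peaks (44.0%, interval 42.7 to 45.3). The nearer share depended on distance to H3K27me3. It was 27.1% for the 915 peaks up to 10 kb from that mark and 41.7 to 49.5% in the classes from 10 to 500 kb. Against the 2319 nearer peaks more than 100 kb from H3K27me3 (47.5%), the far share differed by -3.96 points. By chromosome the far share was the higher on 8 and the lower on 11 of 19 when set against all nearer peaks. The shares under 5 kb were 30.7% and 31.3%. Under 50 kb they were 67.8% and 73.5%, and 127 far peaks (20.9%) had no neighbour within 100 kb, against 882 nearer peaks (15.3%). When peaks with gaps below 10 kb were counted as a run, 168 far peaks (27.6%) were in runs of 2 and 97 (15.9%) in runs of 3 or more. The nearer peaks had 28.7% and 15.3% there, and the largest run had 6 peaks in both sets. Runs with far peaks had a median extent of 50.1 kb, and those with nearer peaks 44.8 kb. The smallest gap in the H3K36me3 list was 1.2 kb, so a run may be a single marked region listed in pieces. This cannot be told apart from separate regions by position. In the H3K27me3 list the smallest gap was 10.2 kb, so numbers and lengths of peaks cannot be set against each other between the marks.

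Among the far peaks, length changed little with isolation. The 265 with a neighbour under 10 kb had a median of 16.6 kb, the 217 with the next peak at 10 to 100 kb 15.8 kb, and the 127 with none within 100 kb 14.4 kb, with upper quartiles of 25.4, 27.4 and 26.7 kb. For the nearer peaks the order was different, at 15.6, 15.6 and 16.6 kb. Isolated far peaks were also more remote from other H3K36me3 than isolated nearer ones, with a median of 364 kb to the next peak against 186 kb.

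Over the classes of distance to H3K27me3, and with all bases counted, surrounding density was level up to 500 kb and lower beyond. Median coverage within 500 kb was 10.8% for peaks up to 10 kb from H3K27me3, 12.1% at 10 to 50 kb, 12.6% in each of the 3 classes from 50 to 300 kb, and 11.8% at 300 to 500 kb. It was 9.48% at 500 to 700 kb, 6.32% at 700 to 1000 kb, 5.51% at 1000 to 2000 kb and 4.95% for the 77 peaks over 2000 kb away. Median length stayed between 14.8 and 17.6 kb over all 10 classes, without an order. The window of 500 kb either side of the centre reaches H3K27me3 around most nearer peaks, though not around some close to the bound. By the choice of peaks it does not around a far one. Bases under H3K27me3, where H3K36me3 was nearly absent, thus lower the medians of the nearer classes only. With them left out, the median over all nearer peaks was 14.9%, and that of the far peaks stayed at 6.51%. Values by class were not computed that way, so whether the level stretch up to 500 kb would remain is unknown.

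**Figure D5:**
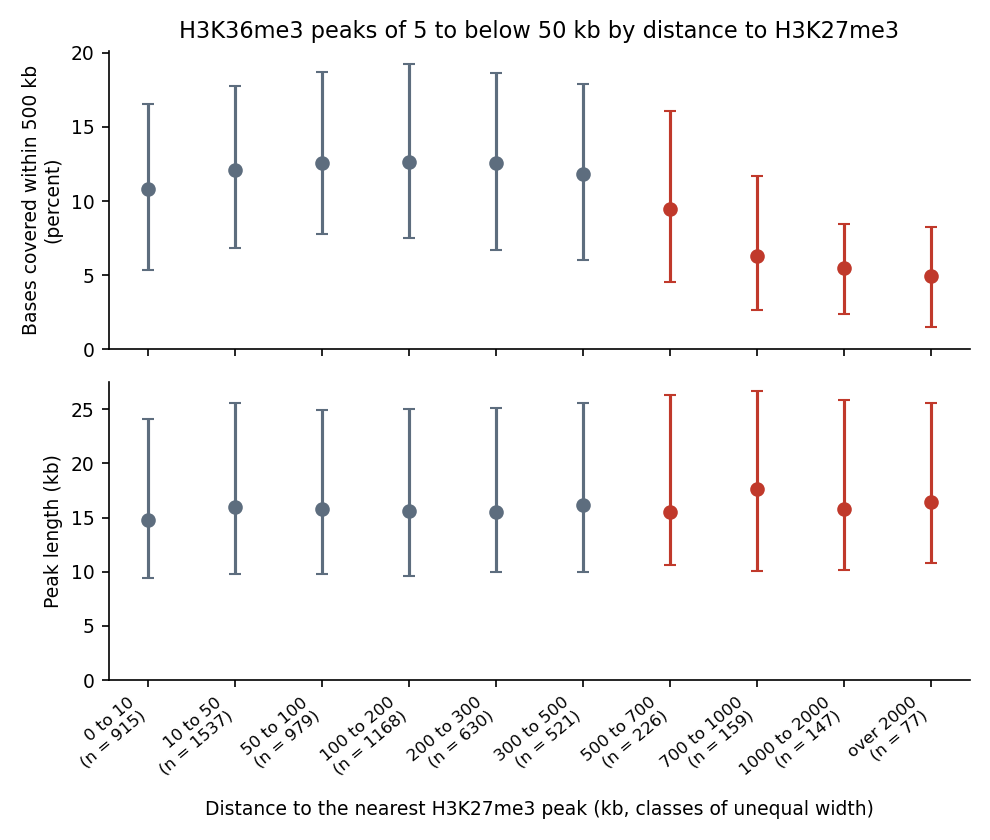
H3K36me3 peaks of 5 to below 50 kb are grouped by distance to the nearest H3K27me3 peak (kb, far peaks in red). Points are medians and bars the quartiles of the percent of bases covered by other H3K36me3 peaks within 500 kb (top) and of peak length in kb (bottom). With bases under H3K27me3 counted, median coverage falls from 11.8% at 300 to 500 kb to 4.95% over 2000 kb. Median length stays between 14.8 and 17.6 kb.

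The most remote far peak lay on the X chromosome from 116413001 to 116431400, 9.57 Mb from H3K27me3 and 6.18 Mb from the next H3K36me3 peak. It was followed by the last listed position of chromosome 17, a peak from 95151401 to 95175800 at 6.92 Mb, and by a peak on chromosome 14 from 95491401 to 95528200 at 5.71 Mb. These 3 peaks were 18.4, 24.4 and 36.8 kb long and stood alone within 500 kb. The next were a pair on chromosome 7, from 46721401 to 46733200 and from 46808801 to 46825600, at 4.69 and 4.59 Mb. Over all far peaks the median distance to H3K27me3 was 806 kb, and 224 (36.8%) were more than 1 Mb away.

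The longest far peaks were near the upper bound of 50 kb and lay in varied surroundings. The first was 49.6 kb on chromosome 13 (107738201 to 107787800), and 2 of 49.4 kb followed, on chromosome 17 (88942401 to 88991800) and chromosome 7 (141915601 to 141965000). A peak of 49.2 kb on chromosome 11 (45911001 to 45960200) and a peak of 47.8 kb on the X (16197601 to 16245400) came after them. Coverage within 500 kb was 2.16% around the X peak, 4.34 to 5.79% around those of chromosomes 13, 17 and 11, and 10.9% around that of chromosome 7. The X peak was also 3.16 Mb from H3K27me3, and its next H3K36me3 peak was 1.4 kb away.

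The far peaks with the densest surroundings formed 3 places. On chromosome 11, peaks from 86438801 to 86459200 and from 86468201 to 86482600 had 42.8% and 45.6% of the bases within 500 kb covered. On chromosome 2, a peak of 40 kb from 125563001 to 125603000 had 43.7%. On chromosome 13, peaks from 104930001 to 104960200 and from 105019601 to 105042800 had 43.5% and 42.9%. Each had 13 to 15 other H3K36me3 peaks in the window, and all 5 were 508 to 686 kb from H3K27me3, in the nearest part of the territory.

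Peaks lay close to both sides of each bound of the choice. The far peaks closest to H3K27me3 were at 500.2 kb (X, 100654401 to 100673000), 501.8 kb (chromosome 3, 95568201 to 95594400) and 503.6 kb (chromosome 13, 18074201 to 18083600). Just outside were peaks at 500 kb (chromosome 5, 104905801 to 104936600), 499.6 kb (chromosome 9, 110133201 to 110143800) and 499 kb (chromosome 6, 17476001 to 17497800). The shortest far peaks were 4 of 5 kb, and 4 peaks equally remote were 4.8 kb. Just above the upper bound were remote peaks of 50.2 kb and a pair of 50.4 kb.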

How the data were processed

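H3K36me3 and H3K27me3 were profiled in C3H10T1/2 cells by chromatin immunoprecipitation of nucleosomes cut with micrococcal nuclease, and sequenced. The deposited data used are 2 peak lists with chromosome, start and end. The submitters' processing notes name Bowtie 1.0.0 and the build mm9. Neither the caller of the peaks nor its settings, nor whether a list stems from wild-type or K36M cells, is stated in the labels or files. No peak height, count or depth is listed, so the precision of a peak is unknown. All 11772 deposited peaks start and end on a grid of 200 bp, and were read as runs of such windows with both ends included. Positions are counted from 1.

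Distances, neighbours and coverage were computed with Python 3.11.15, numpy 2.4.6 and pandas 2.3.3, and tested on simulated data. Binomial intervals are exact (scipy 1.17.1). The span of a chromosome runs between its outermost listed peaks of either mark. Density was the percent of the bases within 500 kb either side of a peak's centre, the peak itself left out, that other H3K36me3 peaks of any length covered. The text names the 5 longest, 5 most remote and 5 most densely surrounded far peaks, the 5 intervals with the most far peaks and the one tied with the last of them, and the peaks at each bound. The far peaks, these rules and the alternatives were chosen with earlier results of these data known. Peaks are not replicates of a condition, so no test was run.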

Additional observations from a re-analysis of the deposited data

How the results depend on the processing

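Of 38 alternative values computed, 37 moved by less than a spread set for each result. This was 1 SD between chromosomes or, for shares, the distance from the far share to the upper end of its exact interval. For length the SD of 4.21 kb was far above the main difference of 600 bp, so even a turn of direction stayed within it. That count therefore says little about length. For the ratio of coverage the spread was 0.125, against a main ratio of 0.215. The density difference stayed below 0 in all 12 alternatives (-8.43 to -3.01 points), which included distances over 250 kb and 1 Mb, windows of 100 kb and 1 Mb, and joined peaks. The ratio of coverage in the territory to that elsewhere stayed between 0.142 and 0.303 in 7. The length difference ran from -200 to 600 bp in 9 and had no stable direction. The share with a close neighbour differed by -5.70 points with neighbours under 50 kb in place of 10 kb, where the far peaks had 67.8% and the nearer 73.5%. This was the 1 value that moved. Its change passed 4.04 points, the distance from the far 10 kb share to the upper end of its exact interval. That interval is of a single share, not of a difference, and treats peaks as independent. The change did not pass the SD between chromosomes of the 10 kb share, 12.0 points. Counting only the 3060 H3K27me3 peaks of 5 kb and longer raised the far peaks from 609 to 949, and the density difference was then -5.45 points. Leaving out bases under H3K27me3, spans between H3K27me3 peaks and joining H3K36me3 peaks closer than 10.2 kb were chosen after seeing the data. The last of these used the smallest gap of the H3K27me3 list. What depth limits is unknown, as none is listed. No paired analysis was possible because no library is named in either list.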

Other observations

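H3K36me3 peaks outside the length range were also found far from H3K27me3. Of all 775 H3K36me3 peaks more than 500 kb from that mark, 111 (14.3%, exact 95% interval 11.9 to 17.0) were under 5 kb and 55 (7.10%, interval 5.39 to 9.14) were 50 kb or longer. Among the 6998 other H3K36me3 peaks the shares were 11.3% (10.6 to 12.1) and 6.53% (5.96 to 7.13).

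For 31 far peaks there was no H3K27me3 peak on one side up to the end of the span, among them 9 on chromosome 7 and 6 on chromosome 6. The median length of these 31 was 24.4 kb, against 16.4 kb for all far peaks. Without them the median was 15.8 kb, the same as for the nearer peaks. This difference was noticed in the data and was not tested.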
